A study of Mus musculus with 6 samples.

Results

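Cytokines, chemokines, interferons, the tumour necrosis factor (TNF) family and their receptors were followed in the neocortex of null mutant mouse embryos against a wild-type pool. The group was defined by name alone, as every probe whose single gene symbol starts with Il and a digit, Ccl, Cxcl, Ccr and a digit, Cxcr, Ifn or Tnf. It held 108 probes for 108 genes, out of 6269 probes with 1 gene symbol and 6856 probes in all. The mutants, which the labels call synaptically silent, and the wild-type animals were of C57BL/6 background and embryonic day 14. The total RNA of each of 6 mutants was hybridised to an array of 2 colours with the same pool of 6 wild-type samples. Replicates 1 to 3 carried the mutant in cy3, and replicates 4 to 6 carried it in cy5. This pool stands as 1 control sample, and the spread between wild-type embryos was not measured.

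Cytokines are small secreted proteins that carry signals between cells, and chemokines are those that direct cell movement. Interleukins, interferons and TNF ligands act through receptors that switch on JAK and STAT proteins or the NF-kappaB pathway. In the immune system many of these ligands are made only after infection or injury. In the developing cortex Cxcl12 and its receptor Cxcr4 are known for guiding interneurons and Cajal-Retzius cells, and gp130, the product of Il6st, carries the signals of the cytokines that start astrocyte formation.

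Before any ratio was read, the probes were counted by the number of arrays with a value, since the deposited table leaves many cells empty. Of the 108 probes, 51 (47.2%) had no value on any array, 48 had values on 1 to 5 arrays and 9 (8.33%) had values on all 6. Among all 6269 named probes, 692 (11.0%) had no value, 2096 had 1 to 5 and 3481 (55.5%) had 6. Missing values were thus more frequent in the cytokine group than over the array at large. Why a cell is empty is not given in the sources used here, and with ratios alone the level of a gene cannot be read. An empty cell is therefore no measure of a gene that is off.

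The contrast held on every array. Replicates 1 to 6 had values for 35, 29, 19, 16, 46 and 46 of the 108 probes, against 64.9% to 83.2% of all named probes. The share for the cytokine group was lowest on replicate 4, at 14.8%, and highest on replicates 5 and 6, at 42.6% each. The most frequent incomplete pattern was a value on replicates 5 and 6 only, found in 11 of the 48 incomplete probes (22.9%) and in 11.2% of the 2096 incomplete named probes.

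**Figure D1:**
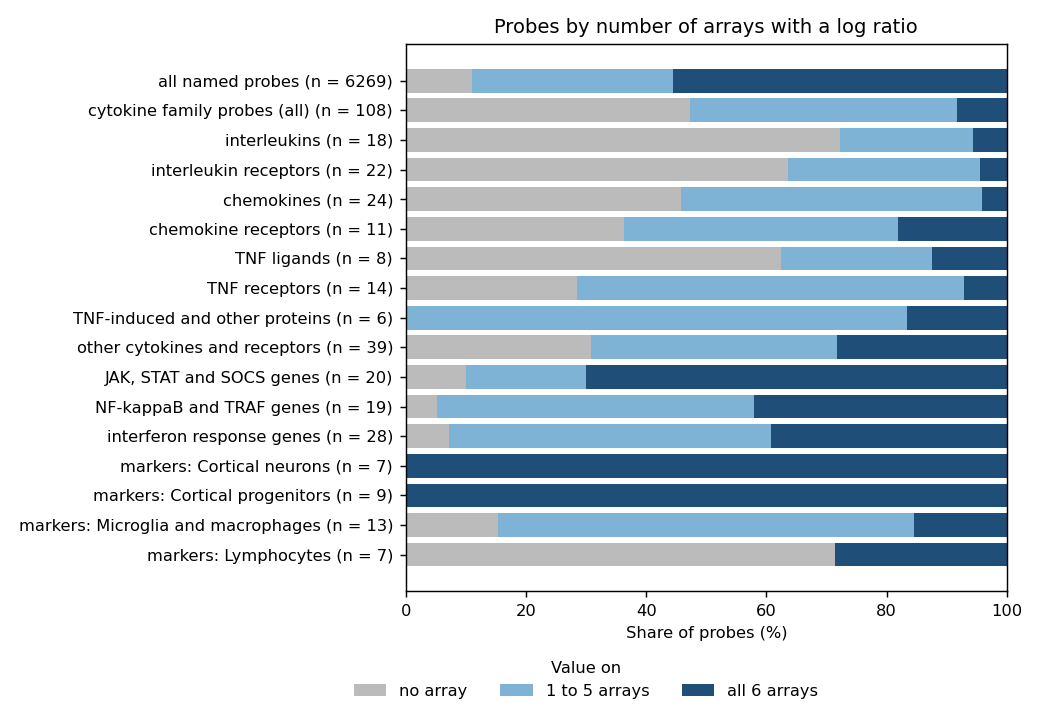
Share of probes (%) with a log ratio on no array, on 1 to 5 arrays and on all 6 arrays, for all named probes, for the 108 cytokine family probes by role and for related gene lists and cell type markers, with n the number of probes. Interleukins have the largest share without any value (72.2%) of the family classes plotted, while every neuron and progenitor marker probe has 6 values.

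Ligands were missing more often than receptors. Of 52 probes for secreted ligands, 29 had no value (55.8%), and of 50 for receptors 22 had none (44.0%). Among 18 interleukins 13 had no value, among them the inflammatory genes Il1a, Il6 and Il18, the T cell growth factor gene Il2 and Il15. Il1rn, which encodes a natural blocker of the interleukin 1 receptor, was the single interleukin with 6 values. Among 22 interleukin receptors 14 had no value, including Il1r1, Il6ra and Il7r, and Il15ra, which presents interleukin 15, was the one with 6 values.

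Chemokines had 11 of 24 probes without a value, such as Ccl2, Ccl4, Ccl5 and Cxcl13, and Ccl27a was the one with 6. Chemokine receptors had 4 of 11 without a value (Ccr1l1, Ccr2, Ccr3 and Cxcr2), while Cxcr4 and Ccr7 had 6. Of 8 TNF ligands 5 had none, and Tnfsf10, which encodes the death ligand TRAIL, had 6. The TNF receptors were better covered, with 4 of 14 without a value, and Tnfrsf21, which encodes death receptor 6, had 6. Both interferon probes (Ifna1 and Ifna4) and all 3 interferon receptor probes had values. The alpha interferon genes are close copies of each other, so a probe for one may also bind others.

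Ligands and receptors were also counted as pairs. Over a chosen list of 28 textbook pairs, both had a value in 11, only the receptor in 7, only the ligand in 3 and neither in 7. Il1rn with Il1r1 is counted among those with only the ligand, although Il1rn encodes a blocker of that receptor. Other pairs with both probes, as Ifna4 with Ifnar1 and Il13 with Il13ra2, were not listed, so the split depends on the choice. Of all ligand probes 44.2% had a value, and of all receptor probes 56.0%. Cxcl12 with Cxcr4 was the 1 listed pair with both partners on at least 5 arrays. Tnfsf10 with Tnfrsf22, which was not listed, had values on 6 and 5 arrays. Il2ra had values on 5 arrays and Il15ra on 6 while Il2 and Il15 had none, and Ccl2 with Ccr2 and Il6 with Il6ra lacked values on both sides.

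The genes that act below these receptors were far better covered than the cytokine group, at shares nearer those of all named probes. The JAK, STAT and SOCS list had 14 of 20 probes with 6 values (70.0%), among them Jak1, Jak2, Tyk2 and Stat3, with Jak3 and the feedback inhibitor Socs1 at no value. For NF-kappaB and TRAF genes it was 8 of 19 (42.1%), and for interferon response genes 11 of 28 (39.3%). Other cytokines and receptors outside the name rule came closer to the group, with 12 of 39 at no value (30.8%) and 11 at 6 values (28.2%). Those with 6 values included Mif, Csf1, Cntfr and Ackr3, a second receptor for the Cxcl12 protein.

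Cell type markers set a scale for these counts and a check of the labelled tissue. All 7 probes of cortical neuron markers and all 9 of cortical progenitor markers had 6 values. Of 13 microglia and macrophage marker probes 2 had 6 values (Aif1 and C1qb) and 2 had none (Cx3cr1 and Ptprc). Lymphocyte markers had 5 of 7 without a value (Cd2, Cd3g, Cd4, Cd79a and Cd8a), and the other 2, Cd8b1 and Rag1, had 6 values. Granulocyte and mast cell markers had 2 of 7 probes with 6 values (Cpa3 and Kit) and 1 with none (S100a9). The 2 erythroid marker probes, Hba-a1 and Alas2, had 6 values. In tissue RNA of this kind fewer cells of a type and less RNA per cell cannot be told apart.

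Promoters of the group differed by the same count. The sequences below are the 200 bases before the annotated start of 6 genes, 5′ to 3′ on the strand of the gene, from RefSeq on build GRCm38.p6, with CpG dinucleotides in capitals. They are shown because the number of CpG varied with the number of arrays with a value. Il2 and Il6 had no value, Cxcl10 had 3, Cxcl12 had 5, and Cxcr4 and Tnfaip1 had 6. The 6 genes were chosen after the counts were seen.
Il2 (chr3:37125955-37126154, minus strand): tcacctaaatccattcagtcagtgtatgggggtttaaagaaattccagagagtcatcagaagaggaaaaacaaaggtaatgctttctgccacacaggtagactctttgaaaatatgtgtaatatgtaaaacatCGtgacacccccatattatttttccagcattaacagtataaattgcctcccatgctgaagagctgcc
Il6 (chr5:30012914-30013113, plus strand): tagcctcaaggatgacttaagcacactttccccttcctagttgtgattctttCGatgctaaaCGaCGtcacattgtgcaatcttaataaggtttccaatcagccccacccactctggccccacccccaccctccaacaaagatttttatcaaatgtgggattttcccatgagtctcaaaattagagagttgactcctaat
Cxcl10 (chr5:92348890-92349089, minus strand): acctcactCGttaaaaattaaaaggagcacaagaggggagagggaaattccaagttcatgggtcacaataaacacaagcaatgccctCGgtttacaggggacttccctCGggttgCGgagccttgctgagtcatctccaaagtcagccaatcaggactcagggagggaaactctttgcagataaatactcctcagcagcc
Cxcl12 (chr6:117168335-117168534, plus strand): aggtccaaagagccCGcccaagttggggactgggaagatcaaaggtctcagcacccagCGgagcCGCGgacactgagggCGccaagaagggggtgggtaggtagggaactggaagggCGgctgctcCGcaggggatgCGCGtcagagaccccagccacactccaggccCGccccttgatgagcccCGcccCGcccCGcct
Cxcr4 (chr1:128592300-128592499, minus strand): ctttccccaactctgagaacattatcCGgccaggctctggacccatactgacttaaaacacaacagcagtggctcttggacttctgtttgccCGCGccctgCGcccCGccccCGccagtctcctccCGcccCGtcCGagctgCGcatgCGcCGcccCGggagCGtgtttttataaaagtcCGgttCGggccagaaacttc
Tnfaip1 (chr11:78536261-78536460, minus strand): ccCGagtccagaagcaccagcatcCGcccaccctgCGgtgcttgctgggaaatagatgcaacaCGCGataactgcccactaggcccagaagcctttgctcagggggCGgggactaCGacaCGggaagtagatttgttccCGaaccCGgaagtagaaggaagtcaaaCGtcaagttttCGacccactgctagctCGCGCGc

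The stretches of Il2 and Il6 held 1 and 3 CpG and that of Cxcl10 held 4, against 13, 16 and 15 for Cxcl12, Cxcr4 and Tnfaip1. Over the whole group, 81 of 108 probes had a promoter in the table, as a window of 300 bases from 250 before to 50 after the most upstream start. The median number of CpG was 3 in the 39 windows of probes without a value, 8 in the 34 with 1 to 5 values and 14 in the 8 with 6 values. Over all named probes it was 7, 15 and 20 in the same order, with 535, 1624 and 2816 windows. The group thus followed the direction seen over the array, at lower counts in each class. CpG-rich promoters are, as background, typical of genes active in many cell types. Exceptions were wide, since windows without a value reached 43 CpG and one with 6 values held 1.

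**Figure D2:**
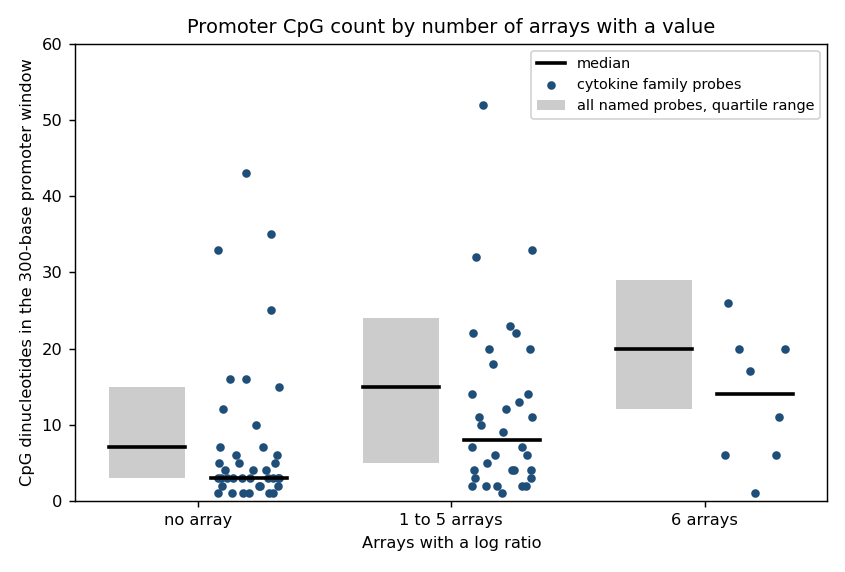
Number of CpG dinucleotides in the 300-base promoter window (vertical axis) by number of arrays with a log ratio. Grey boxes span the quartiles of all named probes, points are single cytokine family probes and black lines are medians, which for the family are 3, 8 and 14 from left to right.

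Short motifs of immune promoters were also searched on both strands of the windows. The TATA box, as TATAAA, was in 18 of 81 windows (22.2%), against 11.1% of the windows of all named probes and 14.2% of 27025 genes in the table. An interferon response element, GAAA and GAAA with 2 bases of any kind between, was in 8 (9.88%), against 3.26% and 3.49%. A narrow form of the NF-kappaB site, GGGA and TTTCC with any base between, was in 2 (2.47%), against 0.462% and 0.389%. These were the windows of Il6 and Ccr3. Looser forms of the site were not searched, so windows without this match may still hold such a site. Each of the 3 motifs was searched alone, and matches may overlap. Among probes without a value the TATA box was in 11 of 39 windows, and among those with any value in 7 of 42 (28.2% and 16.7%). Over all named probes the shares were 18.7% and 10.2%, so the split went the same way over the array. These are matches of letters, and no binding was measured.

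The values that were deposited are read as log2 ratios of mutant over pool, an assumed base, and the direction is not stated in the table. With the signs as deposited, Xist, which silences an X chromosome in females, had -3.17 and -2.58 on replicates 5 and 6 and 0.24 to 0.71 on the other 4. The reading of mutant over pool rests on those 2 negative values and assumes a pool of both sexes, which the labels do not give. On replicates 1 to 3 Xist lay at 0.61, 0.71 and 0.31, of the same sign as replicate 4 at 0.24. When turned, these 3 values would lie below 0 yet far from those of replicates 5 and 6. With the sexes of the pool not given, this does not settle the sign of replicates 1 to 3. Estimates with replicates 1 to 3 turned are therefore given beside the others. Replicates 3 and 4, of opposite dye orientation and with the fewest values, had the largest standard deviations (1.09 and 0.62, against 0.35 to 0.52 on the others). They correlated with each other (r = 0.59 over all probes) and at -0.19 to -0.23 with replicates 1 and 2. Estimates without both are given where the sign or size depends on them.

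On replicate 3 the cytokine group sat far from the rest. Its median there was 0.97 against -0.23 for all probes, with 15 of 19 values above 0, and on replicate 4 it was 0.60 against -0.13, with 11 of 16 above 0. The other 4 arrays had medians of the group between -0.14 and -0.04. Sparsely measured probes of any gene showed the same on replicate 3. Named probes with values on 1 to 3 arrays had a median of 1.82 there, with 93.0% above 0, while those with 6 values had -0.41. The 6 cytokine probes of the sparse class had 2.95 and the 9 with 6 values had 0.72.

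**Figure D3:**
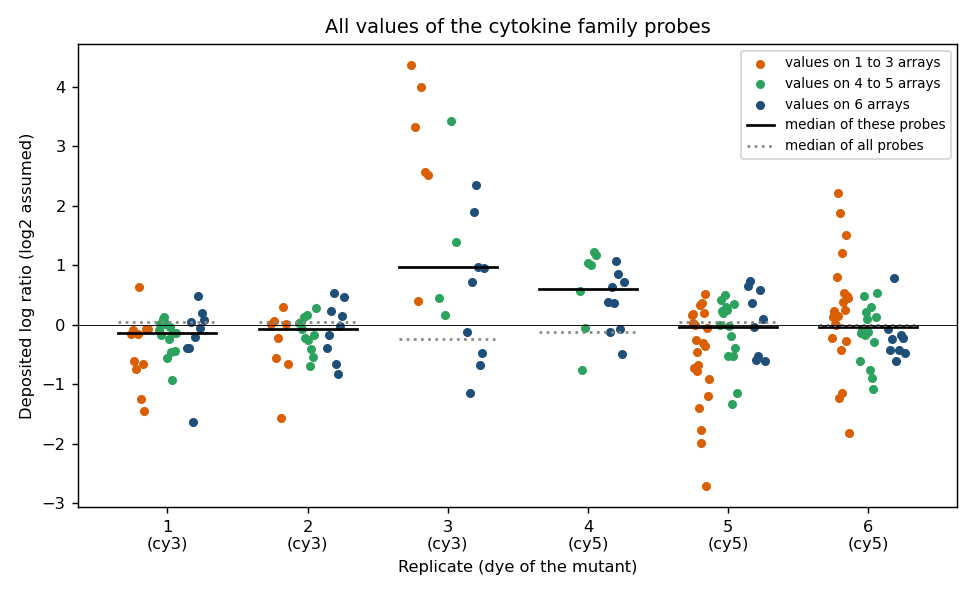
Every deposited log ratio (log2 assumed) of the cytokine family probes on each array, coloured by the number of arrays on which the probe has a value. Black lines are medians of these probes and dotted lines medians of all probes, which lie furthest apart on replicate 3 (0.97 against -0.23).

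Large single values lay mostly on replicate 3. Of 191 values in the group, 9 exceeded 2 in size and 7 of these were on that array, those of the fitted genes Ccl9 and Ccr7 among them. The share over all named probes at this limit was not counted, and replicate 3 had the widest values of all arrays. The median size there was 1.16 in the group and 0.70 over all named probes. Tnfrsf18, a receptor of T cells also called GITR, had its only value there, at 4.37. Ccl12, a monocyte chemokine gene, lay at 4.00 on replicate 3, -1.99 on replicate 5 and -1.15 on replicate 6.

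Other probes that could not be fitted also held values of this size. Ccr6, a receptor of lymphocytes, lay at 3.32, -1.40 and -1.23 on replicates 3, 5 and 6. Cxcl10, an interferon-induced chemokine gene, reached 2.52 on replicate 3 against -1.26 and -1.56 in the other 2 cy3 arrays. Ccl25, a chemokine gene of thymus and gut, lay at 2.57 on replicate 3 and 0.63 on replicate 1. Off replicate 3, Il21r spanned -2.72 on replicate 5 and 1.51 on replicate 6. Ccr1, named after its values were seen, lay at -0.78 on replicate 5 and 2.22 on replicate 6. With 1 to 3 values each these have no error of use.

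Sparse probes of the group were wider in general. Of the 69 values of probes on 1 to 3 arrays, 29.0% exceeded 1 in size, against 16.6% of such values over all named probes. For probes with 6 values the shares were 9.26% of 54 and 6.09% of 20886. Without replicates 3 and 4 the shares on 1 to 3 arrays were 23.8% of 63 and 9.26% of 1793.

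No gene of the group differed between mutants and pool past the threshold. A fit needed at least 2 values in each dye orientation, which 22 of the 108 probes had (20.4%), against 73.0% of all named probes. In limma, 0 of these 22 had an adjusted p under 0.05, where 0.0% of all 4958 probes fitted did. The adjusted p of the 22 ran from 0.921 to 0.987. At an unadjusted p under 0.05 there was 1 of 22, Ifnar2, where 1.77% of all fitted probes lay. The estimates of the 22 ran from -0.77 to 0.56 with a median of 0.07, against -0.03 over all fitted probes, and 15 lay above 0, against 43.3% of all. With replicates 1 to 3 turned 12 lay above 0, with a median of 0.03 against 0.02 over all fitted probes. Without replicates 3 and 4 the median was -0.06 and 8 of 21 lay above 0. With replicates 1 to 3 turned, 0 of 22 passed, 0 lay under an unadjusted p of 0.05, where 4.6% of all probes did, and 11 of the 22 estimates changed sign. Without replicates 3 and 4, 0 of 21 passed, where 0.0212% of all probes did, and 4 (Ifnar2, Ccr7, Tnfrsf19 and Cxcl16) lay under an unadjusted p of 0.05, where 13.6% did. With replicates 1 and 2 turned as well, 0 passed and 1 (Il1rn) lay under it, where 23.4% of all probes did. With array weights 0 of 22 passed, where 0.0403% of all probes did, and 3 lay under it, where 12.1% did.

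**Figure D4:**
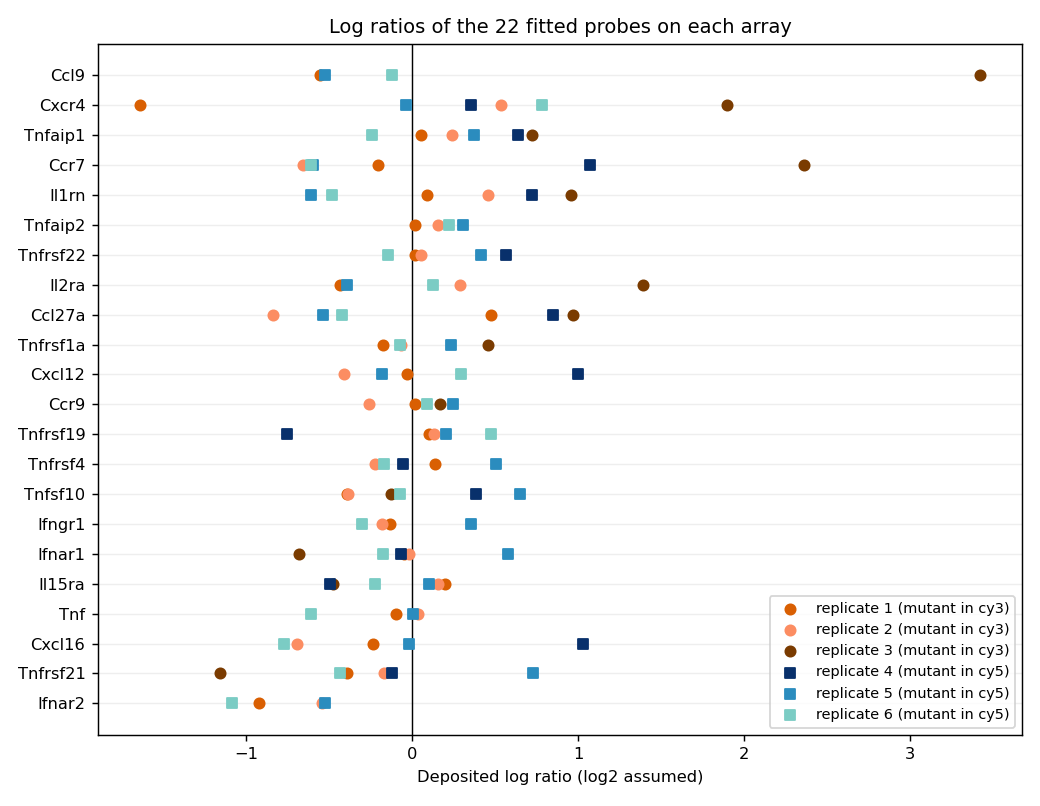
Deposited log ratio (log2 assumed) on each array for the 22 probes that could be fitted, ordered by estimate. Circles are arrays with the mutant in cy3 and squares those with the mutant in cy5; only Ifnar2 and Tnfaip2, each with 4 values, keep 1 sign, and replicate 3 holds the highest value of Ccl9, Cxcr4 and Ccr7.

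Among interferon receptors, Ifnar2, a chain of the receptor for type I interferons, had the smallest p of the group. Replicates 1 and 2 gave -0.92 and -0.54, replicates 5 and 6 gave -0.52 and -1.08, and the other 2 arrays had no value. All 4 arrays were negative, 2 in each dye orientation. The estimate was -0.77 ± 0.18 (SE, n = 4; limma adjusted p = 0.921), a ratio of 0.587 of mutant to pool. A shared sign on every array with a value was seen in 2 of the 22 members, Ifnar2 and Tnfaip2, against 2.72% of all fitted probes. Both have 4 values, and among the 420 fitted probes with 4 values the share was 11.9%. Of the 9 members with 6 values 0 had 1 sign, against 1.44%. With replicates 1 to 3 turned the estimate was -0.04 ± 0.18 (SE, n = 4), so the shared sign exists only in the reading as deposited.

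The estimates of the other 2 receptor chains were nearer 0. Ifnar1 lay at -0.05, -0.02, -0.68, -0.07, 0.58 and -0.17 on replicates 1 to 6, and its estimate was -0.07 ± 0.16 (SE, n = 6), or 0.08 without replicates 3 and 4 and 0.18 with replicates 1 to 3 turned. Ifngr1, a chain of the receptor for interferon gamma, lay at -0.13, -0.18, 0.36 and -0.30 on replicates 1, 2, 5 and 6, with an estimate of -0.06 ± 0.18 (SE, n = 4), or 0.09 with replicates 1 to 3 turned. The difference between Ifnar2 and either gene was not tested. Of the interferon genes themselves, named after their values were seen, Ifna1 lay at 0.29, 0.37 and 1.20 on replicates 2, 5 and 6 and Ifna4 at -0.08, -0.31 and 0.38 on replicates 1, 5 and 6.

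The chemokine pair known from cortex showed no shift beyond its spread. Cxcr4 lay at -1.64, 0.54 and 1.89 on replicates 1 to 3 and at 0.36, -0.04 and 0.78 on replicates 4 to 6. Both extremes fell on arrays with the mutant in cy3. The estimate was 0.32 ± 0.41 (SE, n = 6; limma adjusted p = 0.921), -0.09 ± 0.39 (SE, n = 4) without replicates 3 and 4 and 0.79 without replicate 1. With replicates 1 to 3 turned it was 0.05, and without replicates 3 and 4 and with replicates 1 and 2 turned it was 0.46. Cxcl12 lay at -0.03 and -0.41 on replicates 1 and 2 and at 1.00, -0.18 and 0.30 on replicates 4 to 6. Its estimate was 0.07 ± 0.20 (SE, n = 5), -0.08 without replicates 3 and 4, and 0.30 with replicates 1 to 3 turned. The meninges are a known source of Cxcl12, and the 2 fitted markers of meninges and fibroblasts did not move together. Dcn lay at 1.14 on replicate 4 and between -2.08 and -1.50 on replicates 1, 2, 5 and 6, while for Col1a1 replicate 2 gave -1.13, replicate 3 gave -0.08 and replicates 5 and 6 gave 1.08 and 1.07. The part of these cells in the Cxcl12 ratio was not tested.

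Of the other fitted chemokine receptors, Ccr7 varied with replicates 3 and 4. Ccr7, which responds to Ccl19 and Ccl21, lay at -0.21, -0.66, 2.36, 1.07, -0.60 and -0.61 on replicates 1 to 6. Replicates 3 and 4 stood above 0 and the other 4 below. The estimate was 0.23 ± 0.42 (SE, n = 6), and -0.52 ± 0.10 (SE, n = 4; limma adjusted p = 0.30) without replicates 3 and 4. With replicates 1 to 3 turned it was -0.27, and -0.09 with replicates 1 and 2 turned and replicates 3 and 4 left out. Ccr9, a receptor of gut-homing lymphocytes, lay between -0.26 and 0.25, with 0.17 on replicate 3 and no value on replicate 4. Its estimate was 0.07 ± 0.14 (SE, n = 5), 0.02 without replicates 3 and 4 and 0.10 with replicates 1 to 3 turned.

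Chemokines gave the widest estimate. Ccl9, a chemokine gene of myeloid cells, reached 3.42 on replicate 3, whereas replicates 1, 5 and 6 gave -0.55, -0.53 and -0.12. Its estimate of 0.56 ± 0.64 (SE, n = 4) therefore rests on replicate 3, without which too few values were left for a fit, and it was -0.88 with replicates 1 to 3 turned. Cxcl16, a membrane-bound chemokine gene, lay at -0.24 and -0.69 on replicates 1 and 2 and at 1.03, -0.02 and -0.77 on replicates 4 to 6. Replicate 4 alone was above 0. The estimate was -0.19 ± 0.27 (SE, n = 5), -0.43 without replicates 3 and 4 and 0.27 with replicates 1 to 3 turned. Both changes together gave 0.04.

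The fit held 1 interleukin gene and 2 interleukin receptor genes. Il1rn lay at 0.09, 0.46, 0.96, 0.72, -0.61 and -0.48 on replicates 1 to 6, with all arrays of mutant in cy3 above 0. The estimate was 0.19 ± 0.21 (SE, n = 6), -0.14 without replicates 3 and 4 and -0.31 with replicates 1 to 3 turned. Both changes together gave -0.41 ± 0.09 (SE, n = 4; limma adjusted p = 0.147). Il15ra lay at 0.20, 0.16, -0.48, -0.49, 0.10 and -0.22. Its estimate was -0.12 ± 0.15 (SE, n = 6), 0.06 without replicates 3 and 4 and -0.08 with replicates 1 to 3 turned. Il2ra, the alpha chain of the interleukin 2 receptor, lay at -0.43, 0.29 and 1.39 on replicates 1 to 3 and at -0.39 and 0.13 on replicates 5 and 6. Its estimate was 0.14 ± 0.28 (SE, n = 5), -0.10 without replicates 3 and 4 and -0.27 with replicates 1 to 3 turned. Il6st, the shared gp130 chain, named for its role in cortex after its values were seen, had 3 values, -0.66, -0.05 and 0.49 on replicates 2, 5 and 6, and was not fitted.

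In the TNF family, Tnf had 4 values, -0.10, 0.04, 0.004 and -0.61 on replicates 1, 2, 5 and 6. Only replicate 6 was far from 0, and the estimate was -0.17 ± 0.18 (SE, n = 4), or -0.14 with replicates 1 to 3 turned. Tnfsf10 lay at -0.39, -0.39, -0.13, 0.39, 0.65 and -0.07 on replicates 1 to 6. All 3 arrays with the mutant in cy3 were below 0 and 2 of 3 in cy5 above, so its estimate was 0.01 ± 0.13 (SE, n = 6) as deposited, -0.05 without replicates 3 and 4 and 0.31 ± 0.13 (SE, n = 6; limma adjusted p = 0.972) with replicates 1 to 3 turned.

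Of the TNF receptors, Tnfrsf21 had the estimate furthest from 0. Tnfrsf21 lay at -0.39, -0.17, -1.16, -0.12, 0.73 and -0.43 on replicates 1 to 6, below 0 on 5 of 6 arrays. Its estimate was -0.26 ± 0.20 (SE, n = 6), -0.07 without replicates 3 and 4 and 0.32 with replicates 1 to 3 turned. Tnfrsf22, a decoy receptor for TRAIL, had an estimate of 0.16 ± 0.16 (SE, n = 5), 0.08 without replicates 3 and 4 and 0.12 with replicates 1 to 3 turned. Tnfrsf1a, the main receptor of TNF, had 0.08 ± 0.16 (SE, n = 5), -0.02 without replicates 3 and 4 and 0.0045 with replicates 1 to 3 turned. The 3 fitted probes left, Tnfrsf19, Tnfrsf4 and Ccl27a, named after their values were seen, had estimates of 0.05, 0.03 and 0.08. Without replicates 3 and 4 they had 0.23, 0.06 and -0.33, and with replicates 1 to 3 turned -0.07, 0.07 and -0.12.

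Both fitted genes named for their induction by TNF had positive estimates. Tnfaip1, which encodes an adaptor of a ubiquitin ligase, lay at 0.05, 0.24, 0.72, 0.64, 0.37 and -0.24 on replicates 1 to 6, above 0 on 5 of 6. The estimate was 0.30 ± 0.16 (SE, n = 6; limma adjusted p = 0.921), 0.11 without replicates 3 and 4 and -0.04 with replicates 1 to 3 turned. Tnfaip2 lay at 0.02, 0.16, 0.30 and 0.22 on replicates 1, 2, 5 and 6. It was above 0 on all 4, with an estimate of 0.18 ± 0.15 (SE, n = 4), or 0.09 with replicates 1 to 3 turned. Tnfaip3, an inhibitor of NF-kappaB signalling that was also named after its values were seen, had 3 values between -0.26 and 0.06.

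**Figure D5:**
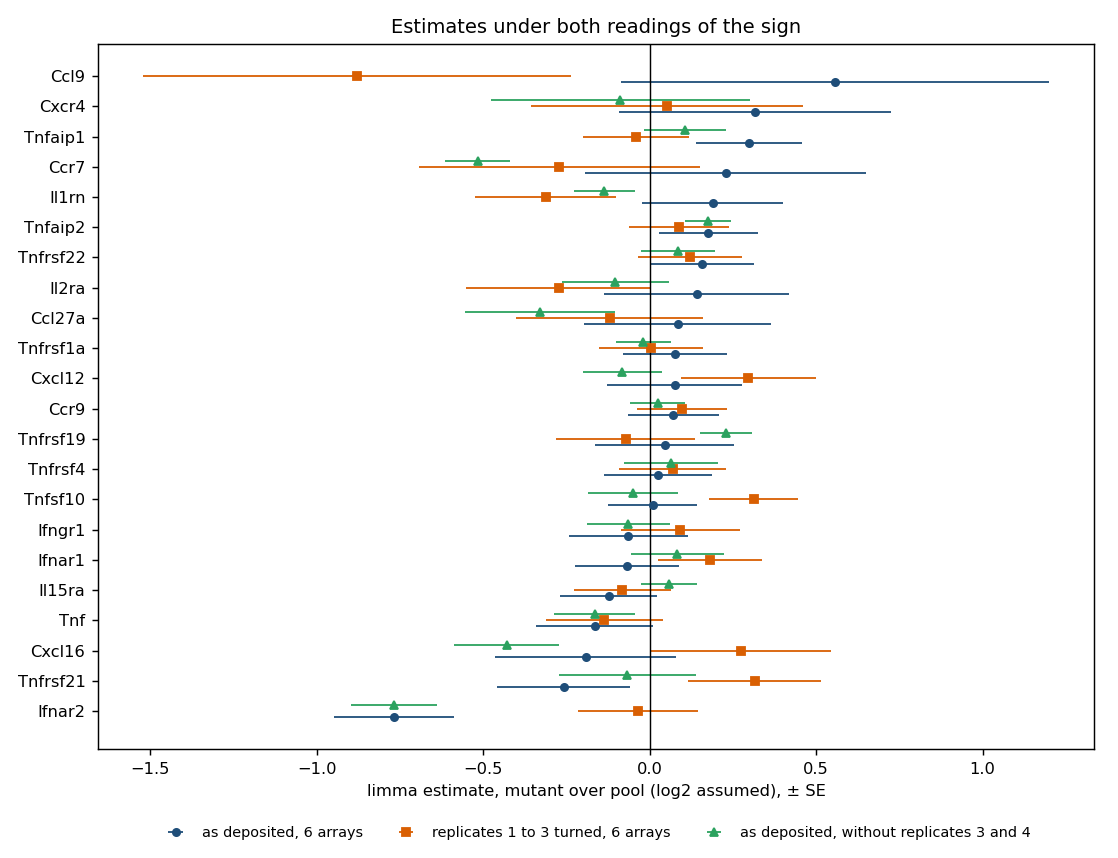
Estimates ± SE (log2 assumed) of the 22 fitted probes with signs as deposited on 6 arrays, with replicates 1 to 3 turned, and as deposited without replicates 3 and 4. Ccl9 has no fit without replicates 3 and 4, and Ifnar2 lies at -0.77 as deposited and at -0.04 with replicates 1 to 3 turned.

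Downstream genes showed no passing member either. In the JAK, STAT and SOCS list 9 of 17 fitted probes lay above 0 and 8 below, where 43.3% of all fitted probes lay above 0. The median was 0.0013, or 0.06 without replicates 3 and 4 and 0.04 with replicates 1 to 3 turned. Of the list 0 passed and 1 had an unadjusted p under 0.05, where 1.77% of all fitted probes did. That gene was Pias3, an inhibitor of STAT3, at 0.40 ± 0.15 (SE, n = 6; limma adjusted p = 0.921), or 0.11 with replicates 1 to 3 turned. Pias3 was positive on 6 of 6 arrays, and 1.44% of fitted probes with 6 values had 1 sign. The kinase gene Jak1 stood at -0.30 ± 0.20 (SE, n = 6), 0.02 without replicates 3 and 4 and 0.26 with replicates 1 to 3 turned.

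NF-kappaB and TRAF genes had 9 of 15 above 0 and a median of 0.05, or -0.03 without replicates 3 and 4 and -0.01 with replicates 1 to 3 turned, with 0 passing and 1 under an unadjusted p of 0.05. Tank, a partner of TRAF proteins, lay at -0.46, -0.63, -0.55, -1.04 and -0.08 on replicates 1, 2, 4, 5 and 6. All 5 values were negative, where 2.72% of all fitted probes had 1 sign on every array with a value. The estimate was -0.55 ± 0.18 (SE, n = 5; limma adjusted p = 0.921), or -0.01 with replicates 1 to 3 turned. The kinase gene Irak1 stood at -0.19 ± 0.16 (SE, n = 6), 0.03 without replicates 3 and 4 and 0.21 with replicates 1 to 3 turned.

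Interferon response genes had 5 of 17 fitted probes above 0 and 12 below, where 43.3% of all fitted probes lay above 0. Their median was -0.09, or -0.01 without replicates 3 and 4, and it changed sign to 0.07 with replicates 1 to 3 turned. None passed or had an unadjusted p under 0.05. Ifi203, an interferon-induced gene, stood at -0.59 ± 0.29 (SE, n = 4), or 0.41 with replicates 1 to 3 turned, and Irf9, a transcription factor of the type I interferon response, at 0.27 ± 0.15 (SE, n = 5), or -0.29 turned in the same way. Other cytokines and receptors had 10 of 19 above 0 and a median of 0.02, or 0.07 without replicates 3 and 4 and 0.04 with replicates 1 to 3 turned. Ackr1, a scavenging chemokine receptor, stood at -0.51 ± 0.27 (SE, n = 5), -0.75 without replicates 3 and 4 and 0.30 with replicates 1 to 3 turned. Csf2ra, a receptor chain for GM-CSF, stood at 0.25 ± 0.14 (SE, n = 6), 0.09 without replicates 3 and 4 and -0.12 with replicates 1 to 3 turned.

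The fitted markers of immune cells that could bring such transcripts did not share a sign. Of the 4 fitted microglia and macrophage markers, C1qb lay at 5.06 and 2.41 on replicates 3 and 4 and between -0.57 and 1.33 on the others. On replicate 3 C1qc lay at -1.14 and Aif1 at -0.50, and on replicate 4 Aif1 lay at -0.27 and C1qc had no value. The estimates were 1.30 ± 0.74 (SE, n = 6) for C1qb and -0.28 ± 0.16 (SE, n = 5) for C1qc. Those of Aif1 and Tyrobp were -0.05 ± 0.14 (SE, n = 6) and -0.36 ± 0.16 (SE, n = 4). Without replicates 3 and 4 the estimates of C1qb, C1qc, Aif1 and Tyrobp were 0.09, -0.17, 0.12 and -0.36. With replicates 1 to 3 turned they were -0.24, 0.45, 0.08 and -0.28. Cx3cr1 and Ptprc had no value on any array. Over all microglia and macrophage marker probes with a value, the median was 0.59 on replicate 3 and 1.24 on replicate 4. The lymphocyte markers with values, Cd8b1 and Rag1, had estimates of 0.09 and -0.05, or 0.01 and 0.05 without replicates 3 and 4. With replicates 1 to 3 turned these estimates were 0.06 and -0.15. The fitted granulocyte and mast cell markers Cpa3, S100a8 and Kit had estimates of 0.15, 0.16 and -0.04. Without replicates 3 and 4 the estimates were -0.20, 0.02 and 0.10, and with replicates 1 to 3 turned -0.26, -0.26 and 0.15. On replicate 3 Cpa3, S100a8 and Kit lay at 1.27, 0.98 and -0.56, and the median over all probes of that list was 1.12. The part of these cells in the ratios of the cytokine group was not tested.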

How the data were processed

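Values are from the authors' deposited table of log ratios (log2 assumed) for 6 arrays of 2 colours; the sources used here do not give the scanner, background correction, normalization or reason for empty cells. The base could also be natural. Probes were named through the platform annotation, in which 6 probes have several symbols and 581 none; 107 of 108 member probes matched RefSeq by gene identifier and 0 symbols differed. The targeted gene is not reported here.

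All 6856 probes entered lmFit and eBayes of limma 3.58.1 (R 4.3.3) if they had at least 2 values in each dye orientation, with the mutant effect as intercept and dye orientation as a term, two-sided, with Benjamini-Hochberg adjustment over 4958 probes and a threshold of 0.05. Turning replicates 1 to 3 exchanges the mutant and dye terms. The fit was tested on simulated data. Alternatives were the other sign, no dye term, centring, scaling, complete probes, array weights, robust moderation (statmod 1.5.0), averaging per gene, a threshold of 0.1 and leaving out arrays; turning replicates 1 and 2 without replicates 3 and 4 was added after seeing the data. The dim-probe filter and slide block need scanner files, not used here.

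Members and lists were chosen with earlier results of these data known. Named members are the 6 with the smallest p in each direction, up to 3 per role, the 6 unfitted ones with the largest value and up to 2 per list.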

Additional observations from a re-analysis of the deposited data

Results flagged for a closer look

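Ccl9 on replicate 3, at 3.42, lay far from its 3 other values, which ran from -0.55 to -0.12, with a gap of 0.891 of the whole range. It was the 1 such case among 22 sets of 4 to 6 array values examined, where chance flags about 1 in 20. Named probes with values on 1 to 3 arrays also lay high on replicate 3, with a median of 1.82, and those on 4 to 5 arrays, as Ccl9 is, had 0.66 there. The part of this in the Ccl9 value was not tested.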

How the results depend on the processing

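The count of 0 members past the threshold was the same in each alternative run, including a threshold of 0.1. Members under an unadjusted p of 0.05 numbered 1, and 0 with replicates 1 to 3 turned or complete probes, 3 with array weights, 4 without replicates 3 and 4, and 0 to 1 when each array was left out. With 4 values, Ifnar2 could not be fitted without any of its arrays. Over all probes 2 passed with array weights, which were 0.10 and 0.31 on replicates 3 and 4 and 1.40 to 4.01 on the others, and 1 passed without replicates 3 and 4. The 4 members without replicates 3 and 4 (19.0% of 21) stand against 13.6% of all probes, and with array weights 3 of 22 against 12.1%. The median over members moved by less than its spread between arrays, from -0.06 to 0.17. Of 19 named members that were fitted, Ifnar2, Tnf, Tnfaip2 and Tnfrsf22 kept their sign in every setting that could fit them. Ifnar2, Tnf and Tnfaip2 have values on replicates 1, 2, 5 and 6 only. Leaving out replicates 3 and 4 could thus not change these estimates, and runs without any of the other arrays could not fit them. For these genes the kept sign therefore says little about the runs with arrays left out. The sign changed in 9 of 19 with replicates 1 to 3 turned, 10 with array weights, 6 with scaling, 9 of 18 without replicates 3 and 4, and 0 without the dye term. Matching by reference symbol left 107 members and 9 with 6 values. No paired analysis was possible because every array shares 1 pool. Of 57 members with values, 35 had too few to fit. The estimates of the others rest on 4 to 6 values each, which limits their precision.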
